A study of Bos taurus with 5 samples.

Results

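TRIM63 and FBXO32 are the genes of the muscle-specific ubiquitin ligases MuRF1 and atrogin-1, and they are described here in the longissimus dorsi, a long back muscle, of Jiaxian Red cattle. The members were taken by symbol, and the 2 genes, with 3 transcripts in all, were found among 9022 genes and 13391 transcripts of the deposited table. RNA sequencing had been carried out on total RNA of this muscle from 5 animals aged 18 months, with 1 library per animal, so the 5 libraries formed 1 group with no control and no second condition. The series sought genes that bear on muscle development in this breed, and the labels give no allele, agent or diet for any animal. Values are FPKM, fragments scaled to transcript length and to the mapped fragments of the library, which compare genes per length, and a gene's level is the sum over its listed transcripts. No counts were given, so read depth was unknown, and the summed FPKM per library ran from 193706 to 223251.

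Muscle loses protein largely through the ubiquitin and proteasome system, in which a ligase chooses the protein that is to be tagged. TRIM63 is a RING-finger protein of the sarcomere that binds titin and acts on proteins of the thick filament and on metabolic enzymes. FBXO32 is an F-box protein and works as the substrate-choosing subunit of a cullin ligase, together with SKP1, CUL1 and RBX1. Both genes are known as targets of the FOXO transcription factors, which insulin and IGF1 hold back through AKT and which fasting, glucocorticoids and disuse release, and both are widely used as markers of muscle wasting.

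TRIM63, ENSBTAG00000005085, was among the more abundant genes of the muscle. Libraries 1 to 5 held 96.9, 119, 74.0, 105 and 107 FPKM, with a mean of 100.3 ± 16.6 (SD, n = 5). Library 2 was the highest and library 3 the lowest. The mean placed TRIM63 at rank 216 of the 6136 genes with a mean of at least 1 FPKM, here called detected, above 96.5% of them. The gene lay on chromosome 2 in the table's coordinates, for which no genome build is claimed, and is listed as protein-coding under the same symbol in the RefSeq gene table.

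FBXO32, ENSBTAG00000016194, was lower and varied more. Libraries 1 to 5 held 31.0, 37.1, 13.5, 25.1 and 23.5 FPKM, with a mean of 26.0 ± 8.83 (SD, n = 5). Library 2 was again the highest and library 3 again the lowest. FBXO32 ranked 851 of 6136, above 86.1% of detected genes. It lay on chromosome 14 and is likewise protein-coding in the RefSeq table.

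**Figure D1:**
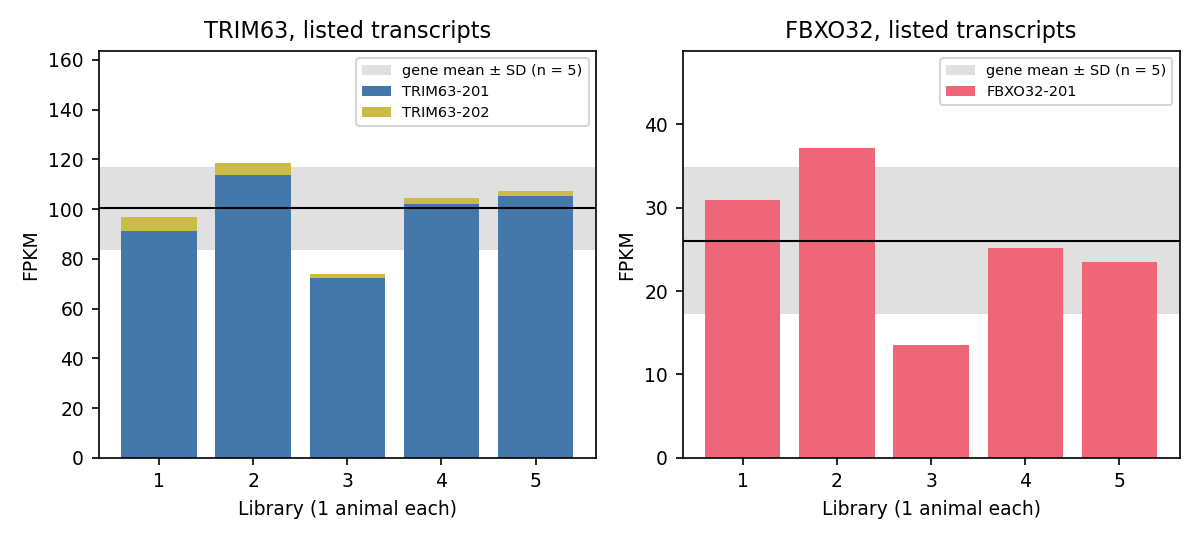
FPKM (vertical axes, each starting at 0) of the listed TRIM63 transcripts, stacked, and of the single listed FBXO32 transcript in the 5 libraries (horizontal axes); the line and grey band are the gene's mean ± SD (n = 5). Both genes are highest in library 2 (119 and 37.1 FPKM) and lowest in library 3 (74.0 and 13.5 FPKM).

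The signal of TRIM63 came almost wholly from 1 transcript. TRIM63-201, from 127020869 to 127035929 on chromosome 2, averaged 96.9 ± 16.0 FPKM (SD, n = 5) and ran from 72.2 in library 3 to 114 in library 2. TRIM63-202, from 127020878 to 127029677 within that interval, averaged 3.43 ± 1.74 FPKM. It was at 5.84, 4.68, 1.78, 2.60 and 2.28 FPKM in libraries 1 to 5.

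The shorter form followed the longer one only in part: both were lowest in library 3, but they were highest in different libraries. Its low values rest on estimates per transcript with unknown depth. TRIM63-202 held 6.03% of the gene's FPKM in library 1 and 3.95% in library 2, against 2.12% to 2.48% in libraries 3 to 5, a mean share of 3.40% ± 1.63 (SD, n = 5). It was thus highest in library 1, where TRIM63-201 was at 91.1 FPKM, its second lowest value. FBXO32 had a single listed transcript, FBXO32-201, from 16328949 to 16361047 on chromosome 14. Neither gene had a gap in the numbering of its listed transcripts.

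FBXO32 spread over a wider range than TRIM63. From the lowest to the highest library FBXO32 differed 2.75-fold and TRIM63 1.60-fold. On the log2(FPKM + 1) scale the SD over libraries was 0.53 for FBXO32, greater than that of 85.5% of detected genes, and 0.25 for TRIM63, greater than that of 51.4%, where the median detected gene had 0.25. Library 3 set much of both values: without it the SD was 0.29 for FBXO32 and 0.12 for TRIM63. Neither gene met the rule for a distant library, since the gap below the next library was 0.426 of the whole range for FBXO32 and 0.514 for TRIM63, under the limit of 0.71 for 5 libraries.

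TRIM63 exceeded FBXO32 in 5 of 5 animals, but the size of the excess differed. The ratio of TRIM63 to FBXO32 in FPKM was 3.13, 3.19, 5.49, 4.16 and 4.56 in libraries 1 to 5. It was therefore greatest in the animal with the lowest level of both genes and smallest in libraries 1 and 2, where FBXO32 was highest. FBXO32 is the divisor and varied more than TRIM63, so this order follows in part from the ratio itself. The mean log2 ratio of FPKM + 1 was 1.96 ± 0.33 (SD, n = 5), or 3.89-fold, and flipping the signs of the 5 ratios gave an exact permutation p of 0.063 (two-sided), the smallest that 5 animals allow. In limma's moderated one-sample test over all detected genes the adjusted p was 6e-10 for TRIM63 against FBXO32 and 1.17e-08 for the same pair in the fit against TRIM63.

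The limma fits compared every other detected gene with each member within libraries, adjusted over 6135 genes by the Benjamini-Hochberg method, with 0.05 as the threshold. By this test 157 genes (2.56%) were above TRIM63 and 5842 (95.2%) below it. FBXO32 had 566 genes (9.23%) above it and 4731 (77.1%) below it. Counting instead genes higher or lower in every library, with no test, gave 2.54% above and 94.8% below TRIM63, and 8.87% above and 71.8% below FBXO32. All ratios in a fit contain the same 5 values of TRIM63 or FBXO32, so the tests are not independent. In the fit against FBXO32 limma used 1 common spread for all genes, with a prior SD of 0.70, so small p-values there may be far too small. The number of animals in each direction is given beside many of them.

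Among ubiquitin ligases tied to muscle, TRIM63 stood second and FBXO32 sixth. Of 26 such genes besides the pair, 18 were listed and 16 detected, and FBXL22 and HUWE1 averaged under 1 FPKM. ASB2, the substrate-binding subunit of a cullin ligase that acts on filamins, was the only one above TRIM63. It was at 160, 195, 228, 166 and 204 FPKM in libraries 1 to 5. ASB2 was above TRIM63 in 5 of 5 animals (log2 ratio 0.92 ± 0.39, SD, n = 5; limma adjusted p = 0.000169), and it was highest in library 3, where both members of the pair were lowest.

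The other 15 detected ligases lay below TRIM63 in 5 of 5 animals and past limma's threshold, a share close to the 95.2% of all genes. WWP1, a HECT-type ligase, came nearest at 68.4 ± 11.2 FPKM (SD, n = 5), with a log2 ratio to TRIM63 of -0.54 ± 0.19 and an adjusted p of 0.00625 in limma, which rose to 0.071 without library 1. TRIM55, which encodes MuRF2, a relative of TRIM63 in the same sarcomeric family, averaged 21.8 ± 3.29 FPKM. It was at 26.2, 23.3, 17.3, 21.3 and 21.1 FPKM in libraries 1 to 5. TRIM63 exceeded TRIM55 4.42-fold, and TRIM55 too was lowest in library 3.

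Limma did not separate FBXO32 from several other ligases. ASB2, WWP1 and MDM2, the ligase of p53, passed limma's threshold above it, and 8 passed below it, so that 3 of 16 were above, against 9.23% of all detected genes, and 8 of 16 below, against 77.1%. MDM2 lost its call without library 5 (adjusted p = 0.0776). The 5 that did not pass were UBR2, UBR4, ITCH, TRIM55 and MIB1. For these the SD of the log2 ratio to FBXO32 ran from 0.35 (TRIM55) to 0.64 (MIB1), under the common spread of 0.70. Not passing therefore does not show equal levels. UBR2, a ligase of the N-end rule, was at 34.5 ± 3.72 FPKM and above FBXO32 in 5 of 5 animals (limma adjusted p = 0.157), while UBR4 (23.4 ± 2.39), ITCH (23.3 ± 1.32), TRIM55 and MIB1 (20.8 ± 1.89) lay below it in 3 or 4 (SD, n = 5).

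The remaining ligases formed a lower step. NEDD4L, at 15.6 ± 5.29 FPKM (SD, n = 5), was below FBXO32 in 5 of 5 animals. For NEDD4L limma's adjusted p was 0.0299, and it was between 0.0518 and 0.153 without library 1, 4 or 5 and 0.0792 with a pseudocount of 0.1. NEDD4, CBLB, FBXO25, SMURF1, FBXO31, FBXO21 and FBXO30 averaged from 4.17 down to 1.19 FPKM. Among these, FBXO25 is the closest relative of FBXO32 and averaged 2.70 ± 0.583 FPKM, FBXO30 (MUSA1) 1.19 ± 1.06 and FBXO21 (SMART) 1.80 ± 0.548, all below FBXO32 in 5 of 5 animals. FBXO30, FBXO31, CBLB, HUWE1 and MDM2 lacked some lower transcript numbers in the table, so part of their signal may be missing.

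**Figure D2:**
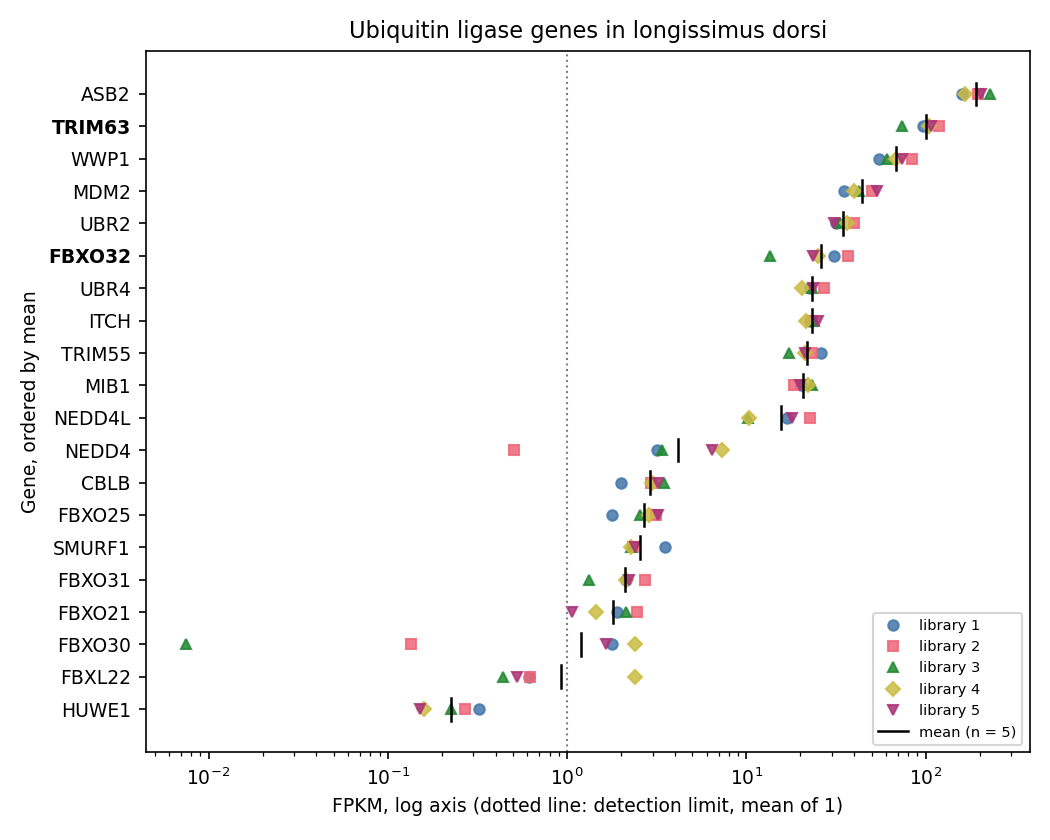
FPKM (horizontal log axis) of the 20 ligase genes, ordered by mean (vertical axis), with 1 symbol per library and a bar at the mean (n = 5); the dotted line marks a mean of 1 FPKM. TRIM63 lies between ASB2 (mean 190 FPKM) and WWP1 (68.4), while the symbols of FBXO32 (13.5 to 37.1 FPKM) overlap those of UBR4, ITCH, TRIM55 and MIB1.

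Of the 19 pairs of neighbours in this order, 7 had the higher gene higher in every library. The upper 5 steps, from ASB2 over TRIM63, WWP1, MDM2 and UBR2 to FBXO32, were all of this kind. Below FBXO32 the order was mostly not resolved: FBXO32 was above UBR4 in 4 of 5 animals, with a log2 ratio of 0.08 ± 0.50 (SD, n = 5). TRIM63 held 17.1% ± 2.28 of the summed FPKM of the 20 ligase genes, ASB2 32.5% ± 4.52 and FBXO32 4.42% ± 1.41 (SD, n = 5). In library 3 these shares were 13.1%, 40.2% and 2.38%.

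The partners that FBXO32 needs were present at very unequal levels. Of 12 genes of the cullin ligase and its regulators, 8 were listed and all were detected. SKP1, the adaptor that binds the F-box, was at 98.5, 134, 119, 141 and 137 FPKM in libraries 1 to 5. It exceeded FBXO32 in 5 of 5 animals (log2 ratio 2.29 ± 0.57, SD, n = 5). The E2 gene CDC34 did so as well, at 81.5 ± 7.42 FPKM (log2 ratio 1.68 ± 0.46).

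CUL1, the scaffold, averaged 28.0 ± 2.64 FPKM (SD, n = 5), close to FBXO32 itself. It was above FBXO32 in libraries 3 and 5 and below it in the other three (log2 ratio 0.17 ± 0.51; limma adjusted p = 0.619). RBX1, the RING subunit, averaged 3.49 ± 0.746 FPKM and was below FBXO32 in 5 of 5 animals (log2 ratio -2.54 ± 0.59). However, its listed transcripts had a gap in their numbering, as did those of the partner UBA3. In all, 2 of 8 partners were above FBXO32 by limma (9.23% of all genes were), and 3 of 8 below it (77.1%). Without library 3 the number below it was 5, with COPS2, a subunit of the COP9 signalosome, and UBA3, of the NEDD8-activating enzyme, added (adjusted p = 0.024 and 0.0185). With all 5 libraries the 3 below it were RBX1, NAE1, a subunit of the NEDD8-activating enzyme, and CAND1, the exchange factor of cullin ligases. CAND1 was below FBXO32 in 4 of 5 animals. Its limma call (adjusted p = 0.0173) was lost without library 1, 2, 4 or 5 in turn (0.0537 to 0.0687) and with a pseudocount of 0.1 (0.0553).

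**Figure D3:**
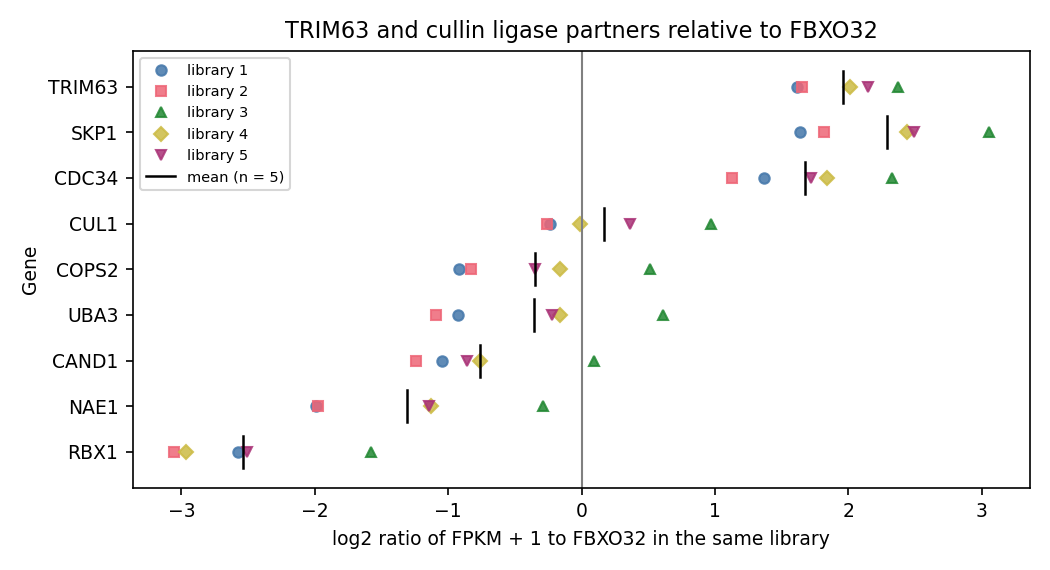
Log2 ratio of FPKM + 1 to FBXO32 in the same library (horizontal axis; 0 means equal levels) for TRIM63 and the 8 listed cullin ligase partners (vertical axis), with 1 symbol per library and a bar at the mean (n = 5). Library 3 gives the highest ratio in every row, where FBXO32 was lowest (13.5 FPKM), and CUL1 lies on both sides of 0.

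Genes that act upstream of the ligases were at very unequal levels. Of 19 genes for ubiquitin and for E1 and E2 enzymes 8 were listed, all detected, and 4 of the 8 were above FBXO32 by limma (9.23% of all genes) and 1 of the 8 above TRIM63 (2.56% of all genes). The ubiquitin gene RPS27A, which also encodes a ribosomal protein, averaged 376 ± 72.7 FPKM (SD, n = 5) over transcripts with a gap in their numbering. The E2 gene UBE2G1 averaged 114 ± 25.8 FPKM, and its difference from TRIM63 did not pass the threshold (limma adjusted p = 0.337). UBE2B, an E2 of muscle proteolysis, averaged 20.7 ± 9.73 FPKM with its lowest value, 11.2, in library 1 and its highest, 35.9, in library 4. The E1 gene UBA1 averaged 3.04 ± 2.97 FPKM and ranged from 0.0112 in library 1 to 6.90 in library 3.

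Most genes of the proteasome, which degrades the tagged proteins, were below TRIM63, and 12 of 21 were above FBXO32. Of 35 subunit genes 21 were listed and detected. By limma 18 of the 21 were below TRIM63, against 95.2% of all genes. Against FBXO32, 12 of the 21 were above and 2 below, with 9.23% and 77.1% for all genes, and 7 did not pass. Of the 2 below, 1 was lower in every library and the other in 4 of 5. The number below FBXO32 was 1 without library 1, 2 or 5 and with a pseudocount of 0.1. PSMA3 averaged 85.5 ± 10.8 FPKM, PSMB3 78.1 ± 21.3 and PSMB7 76.7 ± 10.3 (SD, n = 5). These 3 did not pass the threshold against TRIM63, and each was below TRIM63 in 4 of 5 animals. Without library 3 all 3 passed below it (adjusted p = 0.0302, 0.0223 and 0.00384), and PSMB7 also passed with a detection limit of 5 FPKM (0.0494). The proteasome did not share the profile of the pair: 16 of 21 subunits were lowest in library 1 (26.5% of all detected genes) and none in library 3 (13.7%).

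The transcription factors and cofactors linked to the pair differed widely in level. They ranged from means under 1 FPKM to 51.9 FPKM for KLF9, which was above 93.0% of detected genes. Of 28 factors and cofactors 14 were listed and 9 detected, all 9 below TRIM63 and 7 of them below FBXO32 by limma, against 95.2% and 77.1% of all genes. FOXO3 was at 10.3, 12.3, 11.6, 9.11 and 14.4 FPKM in libraries 1 to 5. FOXO1 was at 6.94, 5.28, 9.79, 6.28 and 8.51 FPKM in the same order. Where TRIM63 and FBXO32 were highest, in library 2, FOXO1 was at its lowest, and where they were lowest, in library 3, FOXO1 was at its highest. The ligase gene MIB1 had the same combination, and the share of all genes with it was not computed. These values are of RNA and do not show the activity of FOXO proteins, which is set mainly by phosphorylation.

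Glucocorticoid-linked factors differed in level. KLF15, which glucocorticoids induce, averaged 6.60 ± 1.31 FPKM and KLF9 51.9 ± 4.56 (SD, n = 5). NR3C1, the glucocorticoid receptor, averaged 0.861 FPKM over listed transcripts whose numbering had a gap, as did those of KLF15. STAT3, a mediator of cytokine signals, averaged 36.4 ± 7.20 FPKM, and SMAD2, which carries myostatin and activin signals, 14.2 ± 0.901. SMAD2 was below FBXO32 in 5 of 5 animals (limma adjusted p = 0.017), a call lost without library 1, 2 or 4 (0.0525 to 0.0702) and with a pseudocount of 0.1 (0.0544). PPARGC1A, the coactivator PGC-1alpha known to restrain the pair, averaged 1.98 ± 1.43 FPKM, at 3.48, 3.47, 1.38, 1.25 and 0.316 in libraries 1 to 5. A gap in the numbering was also found for the listed transcripts of PPARGC1A.

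Of 31 genes for growth and catabolic signals 21 were listed and detected, and all 21 lay below TRIM63 in 5 of 5 animals, as did 94.8% of all genes. Against FBXO32, 16 of the 21 were below by limma (77.1% of all genes), none was above (9.23%), and 5 did not pass, so both shares below lay near those of all genes. PRKAA2, a catalytic subunit of AMP-activated kinase, averaged 36.9 ± 5.19 FPKM (SD, n = 5). TNFRSF12A, the TWEAK receptor, had the greatest SD on the log2(FPKM + 1) scale, at 21.8, 4.28, 22.7, 12.7 and 8.36 FPKM in libraries 1 to 5. It was thus at its lowest in the library where the pair was highest and at its highest where the pair was lowest, as were FOXO1 and MIB1, among others. TNFRSF12A was named for its SD. The share of all genes with this combination was not computed, and a link to the pair was not tested.

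Other genes known to respond to FOXO or glucocorticoids did not share 1 profile with the pair. Of 28 such genes 14 were listed and 10 detected. SESN3, a sestrin that FOXO induces, was named for its likeness to FBXO32, so its profile is no separate result. It was at 44.3, 38.6, 19.4, 32.6 and 24.8 FPKM in libraries 1 to 5. PDK4, the kinase that shuts glucose carbon out of the mitochondria, ran the other way in library 3. It was at 56.1, 138, 347, 79.0 and 231 FPKM in libraries 1 to 5. The cell-cycle inhibitor CDKN1A was at 8.72, 16.4, 21.8, 14.5 and 37.8 FPKM in the same order, and glutamine synthetase, GLUL, averaged 208 ± 42.9 (SD, n = 5). SQSTM1 averaged 199 ± 41.1 FPKM and was lowest in library 1 and highest in library 4. Of the 10 detected genes 5 lay above their own mean in library 2 (46.2% of all detected genes) and 5 in library 3 (57%), shares close to those of all genes.

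**Figure D4:**
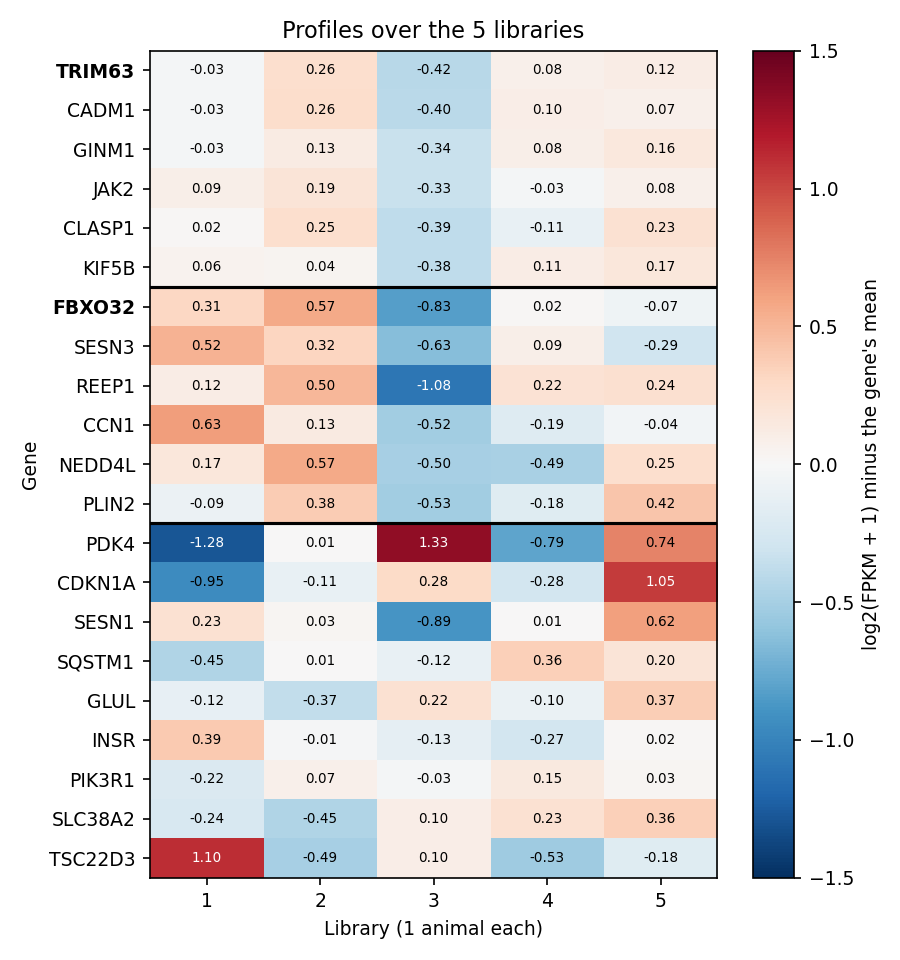
Deviation of log2(FPKM + 1) from each gene's mean (colour and printed value) in the 5 libraries (columns) for TRIM63 and the 5 genes most like it (top), FBXO32 and the 5 most like it (middle) and the other detected FOXO and glucocorticoid response genes (bottom). Library 3 is negative throughout the upper and middle blocks (TRIM63 -0.42, FBXO32 -0.83), while PDK4 is at 1.33 there.

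Likeness of profile was measured as the SD over the 5 libraries of the log2 ratio between a gene and the member, among genes with a symbol, a mean of at least 10 FPKM and an SD at least 0.75 times that of the member. Of 1108 candidates the gene most like TRIM63 was CADM1, a cell adhesion molecule, with an SD of the ratio of 0.025. CADM1 was at 15.6, 19.4, 11.9, 17.2 and 16.9 FPKM in libraries 1 to 5. GINM1 (SD of the ratio 0.079), the cytokine receptor kinase gene JAK2 (0.098), the microtubule-binding CLASP1 (0.11) and the kinesin heavy chain gene KIF5B (0.12) followed. FBXO32 came 267th in that order, with 0.33. These genes were chosen as the extremes of many candidates over only 5 libraries, and the values are given as a description. Among them, CADM1 and CLASP1 had a gap in the numbering of their listed transcripts.

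For FBXO32 there were 254 candidates, and none came as near. Since FBXO32 and its candidates varied more, larger values of this measure were likely beforehand. SESN3 was first, with an SD of the ratio of 0.22, followed by REEP1, a protein of the endoplasmic reticulum, with 0.25. REEP1 was at 25.0, 32.8, 10.3, 26.9 and 27.3 FPKM in libraries 1 to 5. The matricellular gene CCN1 (0.33), the ligase gene NEDD4L (0.35) and the lipid droplet gene PLIN2 (0.38) completed the 5. Both REEP1 and PLIN2 had a gap in the numbering of their listed transcripts. TRIM63, at 0.33 just under CCN1, was no candidate, since its own SD of 0.25 was under the 0.40 required. Like the pair, REEP1, NEDD4L, CADM1, JAK2 and CLASP1 were highest in library 2 and lowest in library 3. They were chosen for likeness to a member, so this is no separate result. The other genes named as most like a member were lowest in library 3 too, but highest in library 1 or 5. The combination was found in 186 of 6136 detected genes (3.03%). Of the 16 detected ligases besides the pair it was found in FBXO31 and NEDD4L.

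Most genes for described substrates or partners of TRIM63 were far more abundant than TRIM63 itself, while those of FBXO32 lay on both sides of it. Of 22 substrates or partners of TRIM63 18 were listed and 17 detected, and 16 of the 17 were above TRIM63 in 5 of 5 animals, against 2.54% of all genes. The slow myosin heavy chain gene MYH7, for a thick filament protein, averaged 3329 ± 276 FPKM, and TCAP, whose product caps titin at the Z-disc, 2823 ± 586 (SD, n = 5). ACTA1 averaged 5134 ± 463 FPKM. The exception was the muscle creatine kinase gene CKM, at 16.2 ± 12.3 FPKM, a level low for muscle that may be incomplete in the table. CKM had no gap in its transcript numbering, however, and ran from 2.50 FPKM in library 5 to 35.5 in library 1. Of 12 described substrates or partners of FBXO32 6 were listed and detected, and by limma 2 of the 6 were above FBXO32 (9.23% of all genes) and 3 below it (77.1%). The sarcomere and cytoskeleton genes FLNC (645 ± 139 FPKM) and ACTN2 (619 ± 70.2) were above FBXO32 in 5 of 5 animals, and the calcineurin gene PPP3CA (34.3 ± 4.39) was also higher in 5 of 5 but did not pass limma's threshold (adjusted p = 0.167). The 3 below it were below in 5 of 5 animals. They were the endosomal sorting gene CHMP2B (9.77 ± 1.82 FPKM), the S6 kinase gene RPS6KB1 (9.03 ± 1.14) and the calcineurin gene PPP3CB (2.70 ± 0.734). The listed transcripts of ACTN2, PPP3CA and PPP3CB had a gap in their numbering. CHMP2B and RPS6KB1 were named after their values were seen.

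Of 11 deubiquitinases described in muscle, which remove the tag, 6 were listed and 4 detected. By limma none of the 4 was above FBXO32 (9.23% of all genes) and 2 were below it (77.1%), or 4 of the 6 listed without library 4, a fit with its own set of detected genes. USP9X averaged 37.5 ± 3.79 FPKM and USP7 33.4 ± 2.31 (SD, n = 5). Both were higher than FBXO32 in 4 of 5 animals (limma adjusted p = 0.0731 and 0.197), and both were below TRIM63 in all 5. Without library 2 USP9X passed above FBXO32 (0.0355). USP28 (8.73 ± 1.78 FPKM) and ATXN3 (2.80 ± 0.515) were below FBXO32 in 5 of 5 animals. For USP28 the listed transcripts had a gap in their numbering, and ATXN3 was named after its values were seen.

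Several measures of tissue makeup moved between the libraries beside the pair. The 7 listed of 10 fibre markers summed to 19743 FPKM in library 1 and from 21018 to 23551 in the others, high in each, with library 3 at 22106. The 5 listed of 8 matrix and fibroblast markers summed to 1048, 528, 693, 977 and 603 FPKM in libraries 1 to 5, and all 5 were lowest in library 2, where the pair was highest (21% of all detected genes were lowest there). The 8 endothelial markers summed to 109 to 124 FPKM and the 4 listed of 8 leukocyte markers to 3.71 to 8.98. Of pericyte and smooth muscle markers 5 of 7 were listed, summing to 36.5 to 88.7 FPKM, with the lowest sum in library 5. Adipocyte markers were represented by LPL and CIDEC of 6, at 32.9 to 65.1 FPKM together, with CIDEC listed at 0 in library 5. That sum was nearly all LPL, at 51.7 ± 14.7 FPKM, since CIDEC averaged only 0.481 ± 0.357 (SD, n = 5) and was not detected. Both were lowest in library 5, but LPL was highest in library 4 and CIDEC in library 2. Satellite cell markers were represented by CHODL and PAX7 of 5, at 7.11 to 9.33 FPKM together. Most of this was CHODL (6.26 to 7.96 FPKM), and PAX7 was not detected, with a mean of 0.971 FPKM. Erythroid markers were represented by HBB of 4 (0.253 to 3.09 FPKM). In such bulk samples fewer cells of a type and less RNA per cell cannot be told apart, and the part of tissue makeup in the levels of the pair was not tested.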

How the data were processed

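The authors deposited FPKM per transcript for 5 libraries, each from another animal, per the file headers. HTSeq 0.6.0, DESeq2 1.10.1 and the build UMD3.1 appear in the submitters' processing notes with no role stated. Aligner and FPKM program are not given in the sources used here. No counts were given, so depth is unknown and no counting interval was computed. Whether the kit selected polyadenylated RNA is not given in the sources used here.

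Transcript FPKM were summed per gene identifier and analysed as log2(FPKM + 1), with detection at a mean of 1 FPKM. A fold is a power of 2 of the mean log2 ratio and understates the difference for low genes. TRIM63 and FBXO32 were compared within libraries by exact permutation, two-sided, flipping signs. The ratio of every detected gene to each was tested with limma 3.58.1 in R 4.3.3, with Benjamini-Hochberg adjustment over all detected genes. It was run on simulated data in which every gene had the median SD. That check did not cover a member as variable as FBXO32. Other steps used Python 3.11.15, numpy 2.4.6, pandas 2.3.3 and matplotlib 3.10.9. P-values rest on the spread between these 5 libraries. In limma each gene's own spread was drawn towards that of all genes, and against FBXO32 1 common spread replaced it.

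The members, the 18 gene lists and the tests were chosen with earlier results of these data known. Of the 267 list symbols, 160 were listed, and symbols with no row were not analysed here. Some genes of these fields are not reported here and were left out of the lists and their counts. The rule for naming genes took the pair, all listed ligases and cullin ligase partners, the 3 members of highest mean and 2 of greatest SD in each other list, FOXO1, FOXO3, FOXO4, NR3C1 and KLF15, the 5 genes most like each member in profile, and the 3 genes above and below each in mean level. The alternatives were a pseudocount of 0.1, detection limits of 5 FPKM and none, a fixed total per library, median-ratio size factors, the transcript of highest mean alone, a rule without a test, and leaving out each library.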

Additional observations from a re-analysis of the deposited data

Results flagged for a closer look

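A library was called distant where its gap to the nearest other library, divided by the whole range of the 5, was above 0.71. Of the 109 named genes with a symbol, 7 had such a library, where chance alone gives about 1 in 20; neither TRIM63 nor FBXO32 was among them. Among ligases, FBXL22 was at 2.39 FPKM in library 4 and no higher than 0.624 in the rest (gap ratio 0.906), and SMURF1 at 3.50 FPKM in library 1 and no higher than 2.40 in the rest (0.901). The cullin regulator CAND1 was at 12.6 FPKM in library 5 and no lower than 14.4 in the rest (0.73). KIF5B, which was among the genes most like TRIM63, was at 53.5 FPKM in library 3 and no lower than 72.0 in the rest (0.739). STAT3 was at 48.8 FPKM in library 5 and no higher than 34.8 in the rest (0.749), and the deubiquitinase gene USP28 at 5.62 FPKM in library 4 and no lower than 8.84 in the rest (0.769). The smooth muscle myosin gene MYH11 was at 7.82 FPKM in library 1 and no higher than 0.821 in the rest (0.937). Like those of USP28, its listed transcripts had a gap in their numbering.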

How the results depend on the processing

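TRIM63 exceeded FBXO32 in every setting tried, with a mean log2 ratio between 1.86 and 2.05 when single libraries were left out. The limma fit gave the same 1.96 and passed the threshold, which the exact test cannot do with 5 animals. Leaving out single libraries gave an SD between 0.29 and 0.61 for FBXO32 and between 0.12 and 0.29 for TRIM63, the lowest in both without library 3. Numbers of genes below a member followed the number tested: 2160 below FBXO32 and 3283 below TRIM63 with a detection limit of 5 FPKM, and 7662 below FBXO32 with none. At 5 FPKM, where fewer list members were tested, 8 ligases were below TRIM63 and 1 below FBXO32, and 10 growth and catabolic signals were below FBXO32. With only the transcript of highest mean, CLIP1 turned to below FBXO32 (log2 ratio -1.35) and MORF4L1 to below TRIM63 (-0.58). Of the other ratios of named genes to either member under the alternatives, 2084 kept their side of the threshold, 27 gained a call and 23 lost one. Counts within lists stayed within 1.5 times in 749 cases and not in 43. Library 3 was lowest and library 2 highest for both genes under each of the 3 scalings. Levels rest on estimates per transcript with unknown depth. No paired analysis was possible because all 5 libraries form 1 group, so there are no groups of animals to pair; the ratios within libraries pair genes.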
